A study of Mus musculus with 10 samples.

Results

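Dorsal root ganglia (DRG) hold the cell bodies of the sensory neurons of the body, together with satellite glia, Schwann cells, vessels and connective tissue. The libraries described here are all 10 of the 10 bulk RNA-sequencing libraries of embryonic mouse DRG, split by the replicate number in their titles into numbers 1 to 3 (6 libraries, 3 control and 3 *WD1* cKO) and numbers 4 and 5 (4 libraries, 2 control and 2 *WD1* cKO). The cut between 3 and 4 was chosen by measured values, because it was proposed with the levels of *Hbb-bs*, *Hba-a1* and other genes in these same libraries known. Every difference between the number sets is therefore given as a description, with its size and standard error but without a p-value, and a count of genes past a cut-off states how many there were and is not support for the split. What the number stands for (a litter, a day, a dissection or a library batch) is not given in the sources used here.

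DRG were collected at E18.5 from control embryos and from *WD1* cKO embryos, in which a *Wnt1*-driven Cre removes the floxed exon of *Dach1*, a transcriptional corepressor, from cells of neural crest origin. Both groups are homozygous for Dach1 flox, on a mixed background of C57Bl/6J and CD1, and the study describes controls as littermates. The labels carry a genotype field that is swapped relative to the titles, and the titles were followed. In the libraries titled *WD1* cKO the targeted gene was lower: Dach1 (ENSMUSG00000055639, chromosome 14) was at 35.1, 38.5 and 41.6 CPM in control 1 to 3 and 19.1, 20.7 and 19.5 CPM in WD1 cKO 1 to 3. Among numbers 4 and 5, control had 37.1 and 37.4 CPM and WD1 cKO 20.3 and 20.4 CPM. Its log2 fold change between genotypes was -0.92 ± 0.051 with the number set in the model (edgeR's quasi-likelihood test, adjusted p = 8.82e-06), and its log2 fold change between the number sets was -0.0034 ± 0.052 (SE).

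As background, red blood cell precursors make almost nothing but haemoglobin and the enzymes and membrane proteins that go with it, and fetal hepatocytes secrete albumin, alpha-fetoprotein and apolipoproteins. Neither kind of cell belongs to a ganglion. Type I interferon binds a receptor on nearly any cell, and through Jak kinases, Stat2 and Irf9 switches on a large set of antiviral genes at a short promoter element, the interferon-stimulated response element. Late in gestation, Schwann cells begin to wrap axons under the control of Egr2, and sensory neurons replace the proteins of migration and early outgrowth with heavy neurofilament and the ion channels of mature firing.

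Promoter sequences of genes that stood out are shown first, chosen as examples whose windows hold a match to an element named below. Not all genes of either group hold one, and the shares are given after the sequences. Each stretch is the last 150 bases before the RefSeq gene start in GRCm38.p6, read 5′ to 3′ on the strand of the gene. For the interferon genes the capitals mark GAAANNGAAA or its reverse complement, the core of an interferon-stimulated response element, with overlapping matches run together:
Isg15: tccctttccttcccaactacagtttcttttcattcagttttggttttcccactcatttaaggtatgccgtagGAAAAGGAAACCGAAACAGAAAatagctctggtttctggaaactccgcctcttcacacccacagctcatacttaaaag
Ifit1: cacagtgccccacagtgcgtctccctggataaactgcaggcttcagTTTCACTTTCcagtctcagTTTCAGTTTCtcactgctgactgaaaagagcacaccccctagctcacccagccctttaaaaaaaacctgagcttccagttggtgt
Ifit3: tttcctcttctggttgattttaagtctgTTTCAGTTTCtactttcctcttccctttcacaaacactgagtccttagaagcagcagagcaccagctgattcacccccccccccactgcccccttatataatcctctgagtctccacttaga
Bst2: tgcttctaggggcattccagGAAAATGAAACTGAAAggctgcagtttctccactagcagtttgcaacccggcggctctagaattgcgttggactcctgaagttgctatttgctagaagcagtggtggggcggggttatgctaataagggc

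These lie at Isg15 chr4:156200819-156200968 (-), Ifit1 chr19:34640739-34640888 (+), Ifit3 chr19:34583379-34583528 (+) and Bst2 chr8:71537473-71537622 (-). In *Isg15* the matches overlap into 1 run that starts 78 bases before the gene, while *Ifit1* holds separate matches. Over windows of 300 bases (250 before and 50 after the start), searched on both strands, 3.44% of all 32851 promoter windows hold the element. Counted by gene, 3.61% of the 12541 tested genes with a window hold it, against 15 of the 28 interferon-responsive genes listed below (53.6%). Most of these 28 belong to a list chosen after values were seen. The element occurred in 7.99% of the 839 genes with a window that were past the cut-off and higher in numbers 4 and 5. It occurred in 2.69% of the 706 that were lower. The 28 genes, where past the cut-off, are part of the 839. *Irf7*, *Ifi44* and *Oasl2* have no match in their windows.

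For the globin genes the capitals mark CCACACCC, the CACCC box that erythroid Krüppel-like factor binds, and CCAAT:
Hbb-bs: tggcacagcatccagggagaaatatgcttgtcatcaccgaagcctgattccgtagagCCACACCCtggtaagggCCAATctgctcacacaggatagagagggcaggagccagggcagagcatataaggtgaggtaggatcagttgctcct
Hba-a1: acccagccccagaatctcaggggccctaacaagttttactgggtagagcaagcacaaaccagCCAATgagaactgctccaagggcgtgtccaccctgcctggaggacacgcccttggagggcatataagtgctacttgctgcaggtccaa

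They lie at Hbb-bs chr7:103827929-103828078 (-) and Hba-a1 chr11:32283522-32283671 (+). The CACCC box was found in *Hbb-bs* only among the 4 adult globin genes and in 3.56% of all windows, and CCAAT in all 4 and in 37.4% of all windows, on either strand. Counted by gene, 4.5% of the 12541 tested genes with a window hold the CACCC box and 42.3% hold CCAAT. A match describes the letters of the window and is not a measured site.

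The total count per library was 20465132 to 29872219 in numbers 1 to 3 and 19757596 to 34796562 in numbers 4 and 5, so depth did not separate the sets. Counts were compared with edgeR's quasi-likelihood method with genotype as a covariate, over 17768 genes. A gene entered if 4 or more libraries had 10 or more counts for it. Levels are CPM, the counts of a gene per 1000000 counts of the library after TMM scaling of library sizes, and a log2 fold change is numbers 4 and 5 over numbers 1 to 3, given ± its standard error. A level in bulk RNA does not tell fewer cells of a kind from less RNA per cell.

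The number was the widest axis of the data. The first principal component held 28.6% of the variance and placed numbers 1 to 3 at -29.7, -15.6 and -10.1 (control 1 to 3) and -17.4, -18.2 and 2.34 (*WD1* cKO 1 to 3), and numbers 4 and 5 at 17.2 and 22.8 (control) and 23.9 and 24.9 (*WD1* cKO). The sets did not overlap, and *WD1* cKO 3 was the library of the lower numbers nearest to the others. Across all genes tested, 1121 genes (6.31%) were past an adjusted p of 0.05 and higher in numbers 4 and 5, and 944 (5.31%) were past it and lower. All 4 libraries of numbers 4 and 5 lay above all 6 of numbers 1 to 3 for 1074 genes (6.04%) and below them for 897 genes (5.05%). These shares are the background to the counts of list members below, and a count near them says nothing particular about a list. Most differences were small: the median absolute log2 fold change was 0.23 among the genes past the cut-off and 0.093 among all genes tested, while 61 genes past it were above 1 and 62 below -1.

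**Figure D1:**
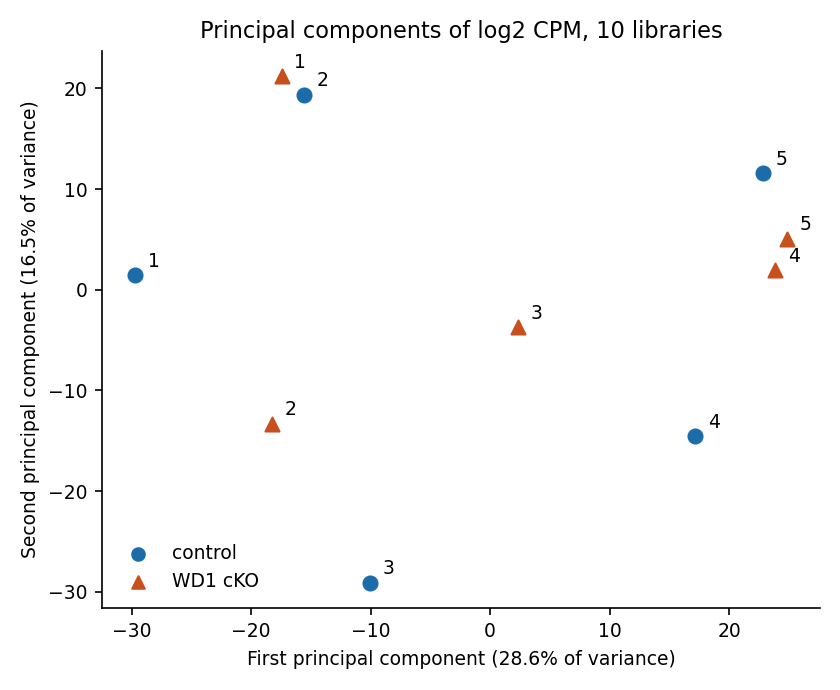
Each point is 1 library on the first and second principal components of log2 CPM, labelled with its replicate number, with circles for control and triangles for *WD1* cKO. Numbers 4 and 5 of both genotypes lie at 17.2 or above on the horizontal axis, and numbers 1 to 3 at 2.34 or below.

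The counts changed when single libraries were left out, while the genes past the cut-off that were tested kept their direction in every such fit. These fits reuse most of the libraries that picked the genes, so the kept direction is not independent support. Without *WD1* cKO 5 the genes lower in numbers 4 and 5 came to 441, without control 4 to 555, and without control 5 to 559, with 724 genes higher in that last fit. Fitted within each genotype, the log2 fold change had the same sign in control (2 against 3 libraries) and in *WD1* cKO (2 against 3 libraries) for 68.1% of all genes, with a Pearson r over genes of 0.57. The cut was chosen with the values of both genotypes known, and genes are not independent replicates, so this is a description and not independent support. A test of the difference itself, genotype by number set, found 0 genes (0%) at an adjusted p under 0.05 with edgeR's quasi-likelihood test, 703 genes at an unadjusted p under 0.05, and 1 gene with DESeq2's Wald test.

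Red blood cell genes were much lower in numbers 4 and 5. All 4 adult globin genes were past the cut-off and lower (median log2 fold change -2.62, against -0.0044 for all genes tested). Hbb-bs (ENSMUSG00000052305, chromosome 7), an adult beta-globin, was at 1294, 862 and 588 CPM in control 1 to 3 and 643, 373 and 273 CPM in WD1 cKO 1 to 3. In numbers 4 and 5 it was at 88.9 and 108 CPM (control) and 142 and 108 CPM (WD1 cKO). Every library of numbers 4 and 5 was below every library of numbers 1 to 3, and the nearest across the cut were *WD1* cKO 3 and *WD1* cKO 4. The log2 fold change was -2.47 ± 0.35, or -3.22 within control and -1.78 within WD1 cKO. Hba-a1 (ENSMUSG00000069919, chromosome 11), an alpha-globin, was at 544, 421 and 153 CPM in control 1 to 3 and 154, 109 and 73.3 CPM in WD1 cKO 1 to 3. The level was 30.9 and 32.9 CPM in control 4 and 5, and 32.2 and 28.0 CPM in WD1 cKO 4 and 5. Its libraries of numbers 4 and 5 lay within a narrow band, while those of numbers 1 to 3 spread widely, with control 1 and 2 highest (log2 fold change -2.72 ± 0.42). *Hbb-bt* ranged from 93.1 to 390.5 CPM (median 183) in numbers 1 to 3 and from 21.3 to 36.5 CPM in numbers 4 and 5 (log2 fold change -2.75 ± 0.34). *Hba-a2*, a near-identical copy of *Hba-a1*, was at only 1.98 CPM in control 2 and at 47.3 to 115 CPM in the rest of numbers 1 to 3. In numbers 4 and 5 it was at 7.14 to 21.1 CPM, so the sets overlapped through control 2 alone. Reads of the pair may not be told apart by the counting, and the level of either gene alone may depend on how they were split. Summed, the adult globins were at 2343, 1553 and 1017 CPM in control 1 to 3 and 1081, 664 and 487 CPM in WD1 cKO 1 to 3. The values for numbers 4 and 5 were 148 and 175 CPM in control and 231 and 182 CPM in WD1 cKO.

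The globins were not alone. Of 22 other erythroid genes, 18 were tested, 13 were past the cut-off and lower, and none was past it and higher (median log2 fold change -2.41, with 11 of the 18 below in every library). The 5 not past it were *Klf1* (-1.76 ± 0.57), *Nfe2* (-0.87 ± 0.36), *Car2* (-0.28 ± 0.14), *Fech* (-0.17 ± 0.066) and *Sptb* (-0.02 ± 0.063), of which the last 3 are widely expressed. Alas2 (ENSMUSG00000025270, chromosome X), the erythroid enzyme that opens haem synthesis, was at 120.4, 79.7 and 53.6 CPM in control 1 to 3 and 53.2, 34.6 and 22.0 CPM in WD1 cKO 1 to 3. It stood at 6.55 and 7.96 CPM in control 4 and 5, against 11.2 and 7.27 CPM in WD1 cKO 4 and 5. The order of the libraries was close to that of *Hbb-bs*, with control 1 highest and *WD1* cKO 3 lowest among numbers 1 to 3. *Slc4a1*, the anion exchanger of the red cell membrane, ranged from 2.55 to 32.8 CPM (median 13.1) in numbers 1 to 3 and from 0.559 to 1.07 CPM in numbers 4 and 5 (log2 fold change -4.12 ± 0.63). *Kel*, a blood group antigen, ranged from 0.298 to 2.73 CPM (median 1.94) in numbers 1 to 3 and from 0.0440 to 0.115 CPM in numbers 4 and 5 (-4.28 ± 0.80), *Trim10* from 0.530 to 3.02 CPM (median 1.40) in numbers 1 to 3 and from 0.144 to 0.305 CPM in numbers 4 and 5 and *Tent5c* from 7.58 to 23.1 CPM (median 12.0) in numbers 1 to 3 and from 4.73 to 5.44 CPM in numbers 4 and 5. *Hemgn*, a nuclear protein of erythroid cells, had 162 counts over numbers 1 to 3 and 3 over numbers 4 and 5, a ratio of 38.9 after library size (exact 95% interval 13.1 to 191, counting error only). Within numbers 1 to 3, control 1 had 60 of its counts, *WD1* cKO 2 had 55 and the others 6 to 21. Of the embryonic globins, *Hba-x* alone was tested and it too was past the cut-off and lower, at 0.266 to 0.800 CPM in numbers 1 to 3 and 0 to 0.254 CPM in numbers 4 and 5. *Hbb-y* and *Hbb-bh1* were at most 0.975 CPM, and *Hbb-bh2* was listed at 0 in every library.

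Genes of the liver went the same way with a wider spread. Of the 6 liver genes tested, 4 were past the cut-off and lower and none higher. *Alb*, albumin, was at 158, 40.8 and 18.6 CPM in control 1 to 3 and 63.4, 99.7 and 2.88 CPM in WD1 cKO 1 to 3. For control 4 and 5 the values were 2.91 and 0.748 CPM, and for WD1 cKO 4 and 5 0.152 and 0.231 CPM. It was high in control 1 and *WD1* cKO 2 and 1, and *WD1* cKO 3 was below control 4, so the sets overlapped. *Afp*, alpha-fetoprotein, was at 84.4, 24.9 and 8.33 CPM in control 1 to 3, 35.04, 43.6 and 1.29 CPM in WD1 cKO 1 to 3, 0.773 and 0.396 CPM in control 4 and 5, and 0.305 and 0.202 CPM in WD1 cKO 4 and 5, with no overlap (log2 fold change -6.29 ± 1.17). *Apoa1* ranged from 0.265 to 12.3 CPM (median 5.22) in numbers 1 to 3 and from 0 to 0.221 CPM in numbers 4 and 5. *Serpina1b* ranged from 0.132 to 3.07 CPM (median 0.877) in numbers 1 to 3 and from 0 to 0.173 CPM in numbers 4 and 5. *Ttr* and *Apoa2*, the others of the list, did not pass the cut-off (log2 fold changes -1.40 ± 0.46 and -0.95 ± 0.33). Outside the list, *Apob* ranged from 0.376 to 8.13 CPM (median 2.06) in numbers 1 to 3 and from 0.0866 to 0.258 CPM in numbers 4 and 5. The fibrinogen gene *Fgb* ranged from 0.166 to 7.07 CPM (median 3.15) in numbers 1 to 3 and from 0.0289 to 0.147 CPM in numbers 4 and 5. *Ambp*, a plasma protein precursor, had 243 counts over numbers 1 to 3 and 1 over numbers 4 and 5, a ratio of 175 (exact 95% interval 31.1 to 6940, counting error only). Its counts were uneven within numbers 1 to 3, at 84, 25 and 14 in control 1 to 3 and 54, 65 and 1 in *WD1* cKO 1 to 3. The 1 count over numbers 4 and 5 was in *WD1* cKO 5. The summed liver level was 271, 76.2 and 32.1 CPM in control 1 to 3 and 119, 160.4 and 7.55 CPM in WD1 cKO 1 to 3. Among numbers 4 and 5, control had 7.21 and 3.69 CPM and WD1 cKO 3.66 and 4.01 CPM. Blood and liver levels did not keep the same order: among numbers 1 to 3, *WD1* cKO 2 was the second highest for liver genes and the fifth for adult globins. Chosen after its values were seen, *Apoa4*, an apolipoprotein of gut and liver, was at 7.24 CPM in *WD1* cKO 1 and at most 0.0331 CPM in every other library.

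**Figure D2:**
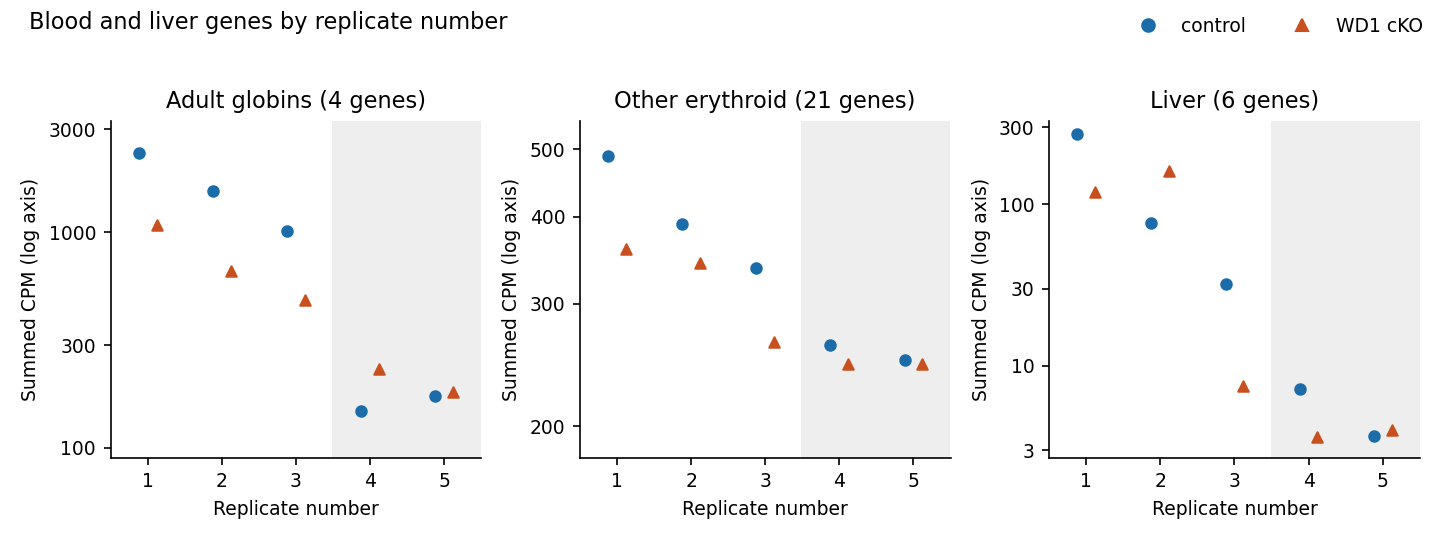
Points are the summed CPM of the adult globins, of the other erythroid genes found in the files and of the liver genes in each library (log axes), against the replicate number, with circles for control, triangles for *WD1* cKO and numbers 4 and 5 shaded. Adult globins span 487 to 2343 CPM in numbers 1 to 3 and 148 to 231 CPM in numbers 4 and 5.

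White cells and vessels were mixed. None of the 14 macrophage genes was past the cut-off (summed level 110.00 to 134 CPM in numbers 1 to 3 and 122 to 134 CPM in numbers 4 and 5). *Mrc1* (0.27 ± 0.10) and *Csf1r* (-0.06 ± 0.065) were the most abundant of them. Of the 8 neutrophil and mast cell genes tested, 1, the mast cell tryptase *Tpsb2*, was lower (1.81 to 3.91 CPM against 1.12 to 2.08 CPM), although the median was -1.50. The summed level of the 12 genes of that list was 11.6 to 50.1 CPM in numbers 1 to 3 and 7.74 to 14.3 CPM in numbers 4 and 5, overlapping between the sets, with *WD1* cKO 2 and control 1 highest. The neutrophil genes *Mpo* (-2.80 ± 0.86), *S100a8* (-1.45 ± 0.50) and *S100a9* (-1.54 ± 0.63) were not past the cut-off. *Elane*, neutrophil elastase, which did not reach the count filter, had 42 counts over numbers 1 to 3 and 2 over numbers 4 and 5, a ratio of 15.1 (exact 95% interval 3.94 to 129, counting error only). Of these counts, control 1 had 12, *WD1* cKO 2 had 18 and the other libraries of numbers 1 to 3 had 2 to 5. Of 10 endothelial genes, 3 were past the cut-off and lower. *Cdh5*, VE-cadherin, was at 100.3, 100.2 and 119 CPM in control 1 to 3 and 99.8, 109 and 119 CPM in WD1 cKO 1 to 3. In numbers 4 and 5 it was at 95.6 and 77.7 CPM (control) and 82.3 and 76.6 CPM (WD1 cKO). All 4 libraries of numbers 4 and 5 were below the other 6 (-0.38 ± 0.074), and *Emcn* (-0.25 ± 0.049) and *Esam* (-0.18 ± 0.046) did the same over a smaller range. *Rgs5*, a pericyte gene, was the 1 of 8 mural genes past the cut-off and was higher (0.41 ± 0.059).

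Interferon-responsive genes were higher in numbers 4 and 5. Of the 9 genes of the interferon response list, 8 were past the cut-off and higher, each with no overlap between the sets, and the median log2 fold change was 1.32. Isg15 (ENSMUSG00000035692, chromosome 4), a ubiquitin-like protein that is attached to other proteins after interferon, was at 0.927, 0.838 and 1.41 CPM in control 1 to 3 and 1.01, 0.760 and 0.894 CPM in WD1 cKO 1 to 3. The level was 3.16 and 4.97 CPM in control 4 and 5, and 2.85 and 3.98 CPM in WD1 cKO 4 and 5. The 6 libraries of numbers 1 to 3 were close to each other and the 4 of numbers 4 and 5 were all above them (log2 fold change 1.94 ± 0.19, or 1.93 within control and 1.96 within WD1 cKO). Ifit1 (ENSMUSG00000034459, chromosome 19), which binds viral RNA caps, was at 0.341, 0.221 and 0.518 CPM in control 1 to 3 and 0.505, 0.304 and 0.364 CPM in WD1 cKO 1 to 3. The values for numbers 4 and 5 were 2.13 and 1.67 CPM in control and 1.17 and 2.40 CPM in WD1 cKO. It is the member with the largest difference (2.31 ± 0.26) and among the least abundant. Irf7 (ENSMUSG00000025498, chromosome 7), a transcription factor that amplifies interferon production, was at 0.927, 0.882 and 2.07 CPM in control 1 to 3 and 1.26, 0.912 and 1.56 CPM in WD1 cKO 1 to 3. It stood at 3.75 and 4.57 CPM in control 4 and 5, against 3.25 and 4.18 CPM in WD1 cKO 4 and 5. Control 3 was the highest of the lower numbers and still below *WD1* cKO 4, the lowest of the higher ones (1.63 ± 0.22). *Usp18*, the protease that removes Isg15, ranged from 0.706 to 1.07 CPM (median 0.940) in numbers 1 to 3 and from 2.18 to 3.47 CPM in numbers 4 and 5 (1.56 ± 0.17). *Oasl2* ranged from 5.90 to 7.58 CPM (median 6.36) in numbers 1 to 3 and from 14.7 to 18.6 CPM in numbers 4 and 5 (1.32 ± 0.090), *Bst2* (tetherin) from 6.22 to 8.87 CPM (median 7.74) in numbers 1 to 3 and from 12.2 to 16.1 CPM in numbers 4 and 5 (0.81 ± 0.11) and *Ifit3* from 1.46 to 2.07 CPM (median 1.88) in numbers 1 to 3 and from 2.59 to 3.75 CPM in numbers 4 and 5 (0.75 ± 0.15).

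*Rsad2* was the exception. It was at 5.71, 4.10 and 1.55 CPM in control 1 to 3, 3.24, 1.41 and 1.46 CPM in WD1 cKO 1 to 3, 1.55 and 2.55 CPM in control 4 and 5, and 1.93 and 2.51 CPM in WD1 cKO 4 and 5, so that control 1 and 2 were highest, and the sets overlapped (-0.37 ± 0.37). *Isg20*, an interferon-inducible exonuclease outside the list, was among the genes lowest in numbers 4 and 5 and ranged from 1.09 to 5.85 CPM (median 2.66) in numbers 1 to 3 and from 0.711 to 0.837 CPM in numbers 4 and 5 (-1.81 ± 0.32). The order of its libraries was that of *Hbb-bs* at its upper end (control 1, then control 2). The summed level of the interferon response list was 42.2, 40.2 and 42.2 CPM in control 1 to 3, 42.0, 38.4 and 40.6 CPM in WD1 cKO 1 to 3, 68.0 and 81.5 CPM in control 4 and 5, and 62.3 and 77.0 CPM in WD1 cKO 4 and 5, and control 5 and *WD1* cKO 5 were the highest.

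**Figure D3:**
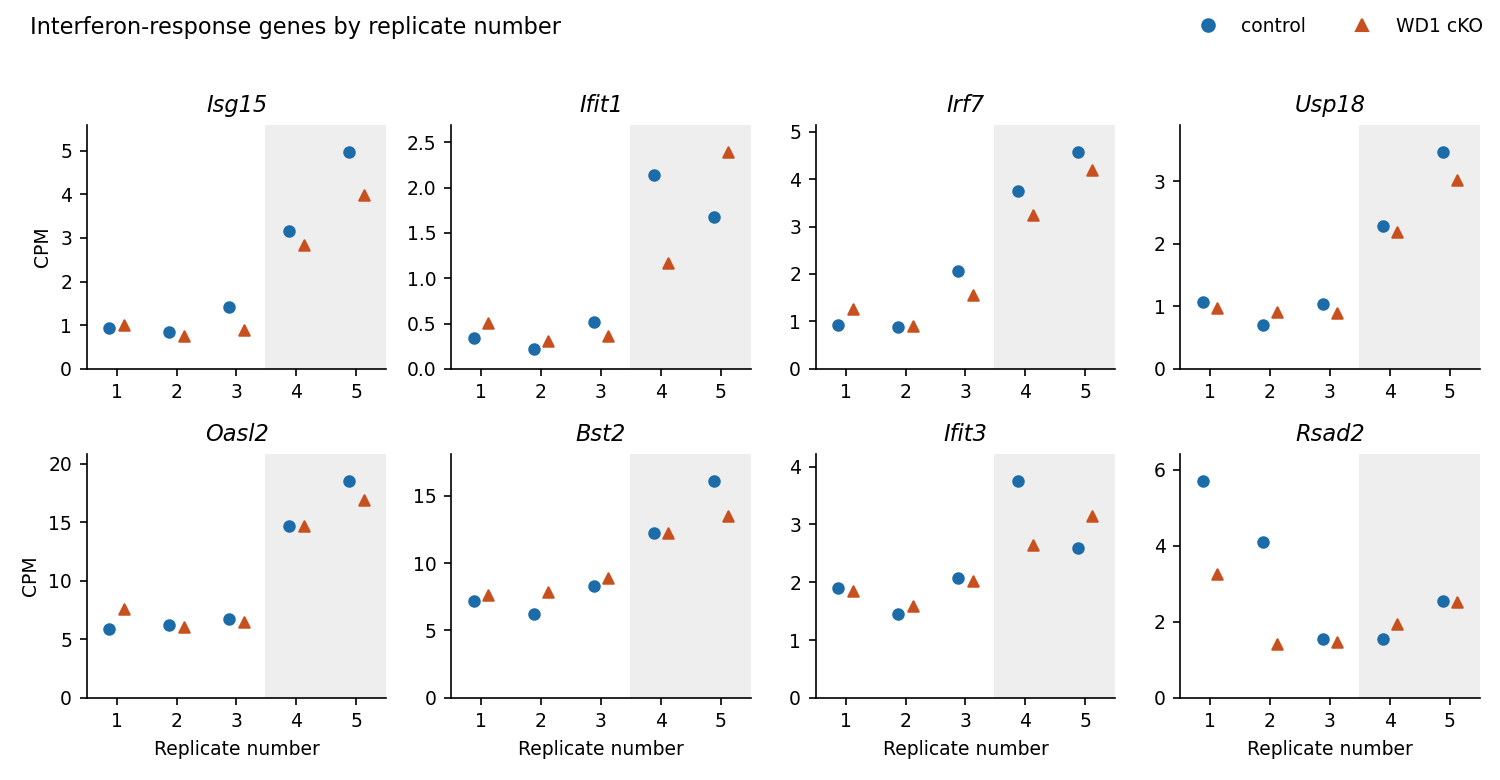
Each panel plots the CPM of 1 interferon-response gene in each library against the replicate number, on axes that start at 0, with circles for control, triangles for *WD1* cKO and numbers 4 and 5 shaded. In 7 of the 8 panels all shaded points lie above all others, and in *Rsad2* control 1 and 2 are the highest.

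The pathway was followed from ligand to target with lists chosen after these values were seen. Of the 6 interferon ligand genes none reached the count filter, and their summed level was at most 0.0488 CPM in any library. Of 7 genes of receptors and Jak kinases, 1, *Jak1*, was past the cut-off and higher (0.13 ± 0.036), and *Ifnar1* (119.5 to 127 CPM against 116 to 124 CPM) and *Ifnar2* (20.9 to 25.2 CPM against 21.9 to 23.6 CPM) overlapped between the sets. Of 7 interferon transcription factors outside the list above, *Irf9* (23.1 to 30.2 CPM against 32.2 to 37.4 CPM, 0.38 ± 0.068) and *Stat2* (0.20 ± 0.035) were past the cut-off and higher, and *Irf1*, *Irf2*, *Irf3*, *Irf5* and *Irf8* were not past it. *Irf9* and *Stat2* encode parts of the complex that binds the element shown above.

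Among 30 further targets, 25 were past the cut-off and higher, none lower, and 21 had no overlap. *Ifi44* ranged from 0.439 to 0.695 CPM (median 0.506) in numbers 1 to 3 and from 2.39 to 3.69 CPM in numbers 4 and 5 (2.50 ± 0.17), and *Gbp3*, an interferon-induced GTPase, from 1.12 to 1.65 CPM (median 1.19) in numbers 1 to 3 and from 3.25 to 5.59 CPM in numbers 4 and 5 (1.76 ± 0.18). *Rnf213*, a large ubiquitin ligase, was at 18.1, 18.9 and 22.3 CPM in control 1 to 3 and 18.2, 19.1 and 21.6 CPM in WD1 cKO 1 to 3. For control 4 and 5 the values were 34.7 and 35.7 CPM, and for WD1 cKO 4 and 5 33.8 and 39.2 CPM. Its sets were well apart in both genotypes (0.86 ± 0.069). The RNA sensors *Ddx58* (RIG-I, 0.73 ± 0.087) and *Ifih1* (MDA5, 1.00 ± 0.20) were also higher. *Oas1a*, *Oas3*, *Mx1*, *Ifit3b* and *Xaf1* were the 5 not past the cut-off, with log2 fold changes from 0.45 to 0.89. Of 10 genes of MHC class I presentation, 4 were higher: *H2-K1* (0.48 ± 0.087), *H2-D1* (0.20 ± 0.051), *Tap1* (0.62 ± 0.11) and *Psmb8* (0.95 ± 0.28). *B2m* overlapped between the sets (46.6 to 75.3 CPM against 69.1 to 106 CPM). Beside this, the summed level of the 14 macrophage genes overlapped between the sets (above), and none of the 14 was at 0 in any library.

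Myelin genes of Schwann cells were higher in numbers 4 and 5. Of the 11 tested, 9 were past the cut-off and higher and none lower (median log2 fold change 0.86), and 6 had no overlap between the sets. Cldn19 (ENSMUSG00000066058, chromosome 4), a claudin of Schwann cell junctions, was at 3.80, 3.13 and 5.46 CPM in control 1 to 3 and 2.36, 11.2 and 7.09 CPM in WD1 cKO 1 to 3. Among numbers 4 and 5, control had 16.9 and 13.4 CPM and WD1 cKO 24.1 and 18.3 CPM. It was lowest in *WD1* cKO 1 and highest in *WD1* cKO 4, with *WD1* cKO 2 the highest of the lower numbers (1.73 ± 0.29). Egr2 (ENSMUSG00000037868, chromosome 10), the transcription factor of myelination, was at 1.90, 1.72 and 2.40 CPM in control 1 to 3 and 1.39, 5.81 and 3.34 CPM in WD1 cKO 1 to 3. In numbers 4 and 5 it was at 5.59 and 5.45 CPM (control) and 8.84 and 7.88 CPM (WD1 cKO). Here *WD1* cKO 2 was above control 4 and 5, so the sets overlapped (1.34 ± 0.26). *Pmp22*, a major protein of compact myelin, was at 269, 236 and 258 CPM in control 1 to 3 and 233, 297 and 275 CPM in WD1 cKO 1 to 3. The level was 369.8 and 367 CPM in control 4 and 5, and 389 and 409.96 CPM in WD1 cKO 4 and 5. Its sets did not overlap (0.55 ± 0.059).

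*Fa2h*, which makes the hydroxylated lipids of myelin, ranged from 0.750 to 2.81 CPM (median 1.46) in numbers 1 to 3 and from 3.65 to 5.48 CPM in numbers 4 and 5 (1.61 ± 0.23), *Ncmap* from 0.927 to 1.22 CPM (median 1.01) in numbers 1 to 3 and from 1.98 to 3.00 CPM in numbers 4 and 5 (1.26 ± 0.15) and *Gldn*, a protein of the node of Ranvier, from 0.683 to 1.29 CPM (median 0.920) in numbers 1 to 3 and from 1.80 to 2.69 CPM in numbers 4 and 5 (1.23 ± 0.13). *Prx* (0.86 ± 0.18) and *Mbp* (0.22 ± 0.066) were past the cut-off with overlap, and *Mag* (0.79 ± 0.24) and *Drp2* (0.01 ± 0.051) were not past it. *Pmp2* did not reach the filter, and was at 0 to 0.126 CPM in numbers 1 to 3 and 0.294 to 1.01 CPM in numbers 4 and 5. *WD1* cKO 2 was the highest of numbers 1 to 3 for *Cldn19*, *Egr2*, *Fa2h*, *Prx* and *Mag*, and the summed myelin level was 702, 639 and 741 CPM in control 1 to 3 and 607, 839 and 733 CPM in WD1 cKO 1 to 3. The values for numbers 4 and 5 were 989 and 909 CPM in control and 1088 and 1058 CPM in WD1 cKO.

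Genes of all Schwann and satellite cells moved little beside this. Of 12 satellite glia and Schwann precursor genes, 2 were higher, among them *S100b* (0.28 ± 0.042), and *Sox2* (-0.33 ± 0.080) and *Fabp7* (-0.18 ± 0.028) were lower, each with no overlap. The other 8 were not past the cut-off. Their sum was 1872 to 2074 CPM in numbers 1 to 3 and 1999 to 2085 CPM in numbers 4 and 5. Of 16 further myelin and node genes, chosen after values were seen, 6 were higher, among them *Gjc3* (0.54 ± 0.13), *Dhh* (0.50 ± 0.12), *Mal* (0.40 ± 0.077), *Cnp* and *Cntn1*, and none was lower, while *Sox10*, which marks the whole lineage, was not past the cut-off (-0.12 ± 0.085).

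Among neurons, the total level of pan-sensory genes was close in the sets (13911 to 16260.3 CPM in numbers 1 to 3 and 15925 to 17317 CPM in numbers 4 and 5), but its members parted. Of 14, 4 were past the cut-off and higher, 3 lower, and 7 not past it. Nefh (ENSMUSG00000020396, chromosome 11), the heavy neurofilament of large mature axons, was at 479, 454 and 385 CPM in control 1 to 3 and 449.6, 538 and 429.5 CPM in WD1 cKO 1 to 3. It stood at 613 and 644 CPM in control 4 and 5, against 582 and 691 CPM in WD1 cKO 4 and 5. All libraries of numbers 4 and 5 were above the others (0.47 ± 0.076), as for the synaptic protein gene *Snap25* (0.19 ± 0.049) and for *Avil* (0.16 ± 0.034) and *Stmn2* (0.13 ± 0.037). *Pou4f1* and *Isl1*, transcription factors that specify sensory neurons, were lower. *Pou4f1* ranged from 155 to 174 CPM (median 161) in numbers 1 to 3 and from 134 to 152 CPM in numbers 4 and 5 (-0.19 ± 0.026) and *Isl1* from 262 to 351 CPM (median 294) in numbers 1 to 3 and from 249.7 to 262 CPM in numbers 4 and 5 (-0.24 ± 0.068, with overlap). The RNA-binding protein gene *Elavl4* was the third that was lower (-0.12 ± 0.034).

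Nociceptor genes also moved in both directions. Of 12, 6 were past the cut-off and higher and 3 lower (median 0.21). Trpm8 (ENSMUSG00000036251, chromosome 1), the cold receptor, was at 34.7, 30.6 and 26.4 CPM in control 1 to 3 and 31.4, 44.4 and 31.3 CPM in WD1 cKO 1 to 3. For control 4 and 5 the values were 57.4 and 61.8 CPM, and for WD1 cKO 4 and 5 58.0 and 59.0 CPM. *WD1* cKO 2 was the highest of the lower numbers and still below all 4 of numbers 4 and 5 (0.84 ± 0.10). *Calca*, which encodes CGRP, ranged from 246 to 318 CPM (median 266) in numbers 1 to 3 and from 366 to 408 CPM in numbers 4 and 5 (0.49 ± 0.065), the substance P gene *Tac1* from 74.4 to 95.8 CPM (median 81.0) in numbers 1 to 3 and from 103 to 115 CPM in numbers 4 and 5 (0.39 ± 0.039) and *Scn11a*, a sodium channel, from 493 to 582 CPM (median 555) in numbers 1 to 3 and from 622 to 759 CPM in numbers 4 and 5 (0.33 ± 0.057). *Mrgprd* (0.45 ± 0.11) and the heat receptor *Trpv1* (0.32 ± 0.068) were also higher. *Runx1* (-0.26 ± 0.040) and *Prdm12* (-0.18 ± 0.039), transcription factors of the lineage, and *Gal* (-0.16 ± 0.038) were lower. *Scn10a* and *P2rx3* were among those not past the cut-off.

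Genes of newly born neurons, a list chosen after values were seen, were lower in 7 of 14 cases and higher in none. Sox11 (ENSMUSG00000063632, chromosome 12), a transcription factor of young neurons, was at 97.2, 101 and 92.6 CPM in control 1 to 3 and 100.3, 86.1 and 98.0 CPM in WD1 cKO 1 to 3. Among numbers 4 and 5, control had 68.1 and 67.2 CPM and WD1 cKO 73.8 and 63.5 CPM. Every library of numbers 4 and 5 was below every other (-0.49 ± 0.052). *Sox4* ranged from 148 to 165 CPM (median 157) in numbers 1 to 3 and from 114 to 131 CPM in numbers 4 and 5 (-0.37 ± 0.033) and *Dcx*, the microtubule protein of migrating neurons, from 585 to 663 CPM (median 632) in numbers 1 to 3 and from 426 to 469.8 CPM in numbers 4 and 5 (-0.46 ± 0.044). *Nrep* (-0.32 ± 0.034), *Marcksl1* (-0.26 ± 0.030), *Stmn1* (-0.25 ± 0.055) and *Nnat* (-0.23 ± 0.045) were the others, and *Tubb2b* (-0.02 ± 0.032) and *Mllt11* (-0.03 ± 0.036) were not past the cut-off. Channels of maturing sensory neurons, chosen in the same way, were higher in 6 of 14 cases and lower in none. Scn4b (ENSMUSG00000046480, chromosome 9), a sodium channel subunit for fast firing, was at 27.3, 27.1 and 29.5 CPM in control 1 to 3 and 25.4, 30.05 and 24.0 CPM in WD1 cKO 1 to 3. In numbers 4 and 5 it was at 49.1 and 55.5 CPM (control) and 41.8 and 51.7 CPM (WD1 cKO). It differed by 0.86 ± 0.074, and *Kcnip2* (0.41 ± 0.046) and *Scn1a* (0.36 ± 0.059) also had no overlap. *Kcnab2* (0.22 ± 0.048) and *Hcn2* (0.21 ± 0.054) were past the cut-off too. *Thy1*, a surface protein of mature neurons that was picked after its values were seen, ranged from 131 to 155 CPM (median 137) in numbers 1 to 3 and from 187 to 224 CPM in numbers 4 and 5 (0.59 ± 0.058).

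**Figure D4:**
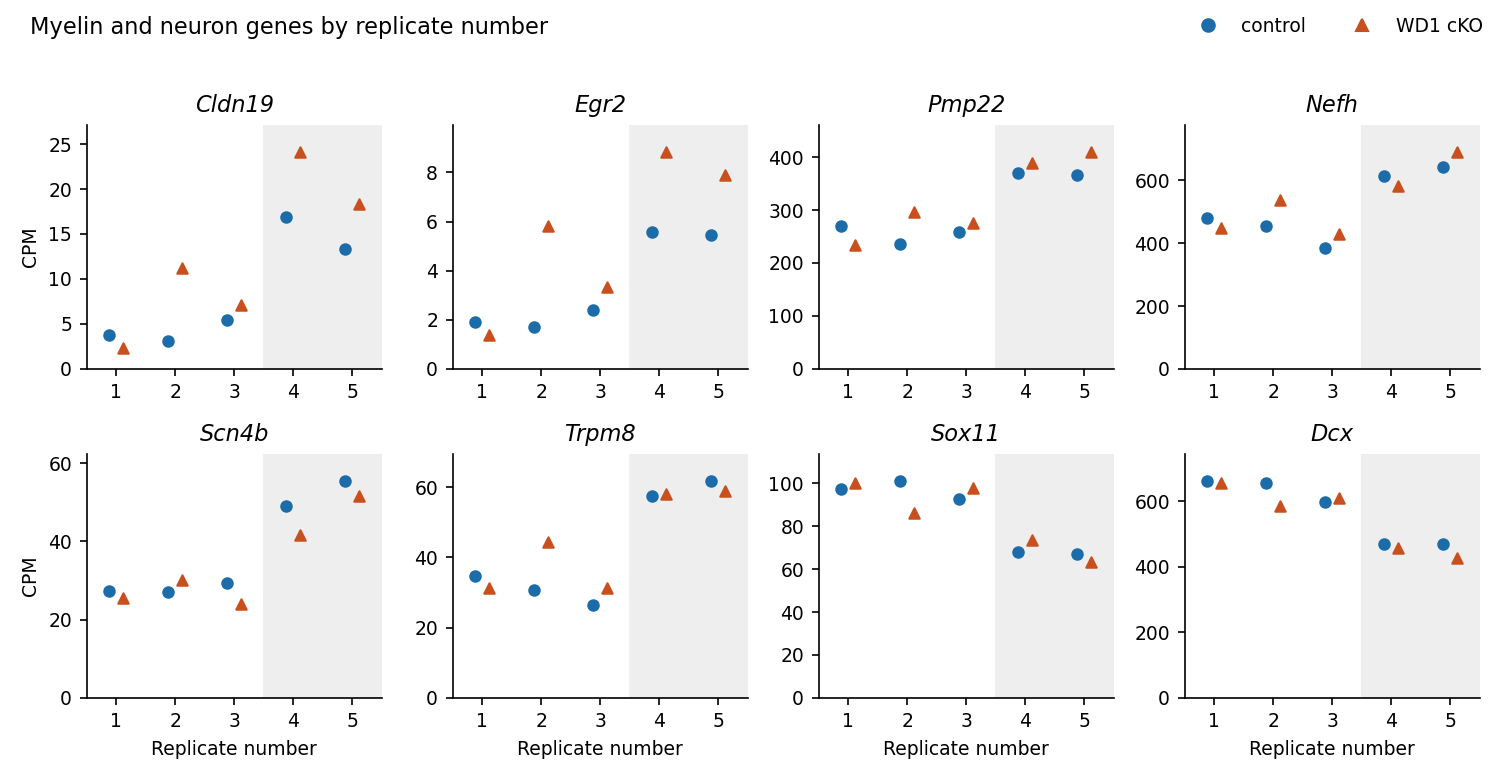
Each panel plots the CPM of 1 myelin or neuron gene in each library against the replicate number, on axes that start at 0, with circles for control, triangles for *WD1* cKO and numbers 4 and 5 shaded. *Cldn19*, *Pmp22*, *Nefh*, *Scn4b* and *Trpm8* have all shaded points above all others, *Sox11* and *Dcx* have them below, and *Egr2* overlaps through *WD1* cKO 2.

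Mechanoreceptor and proprioceptor genes differed little. Of 8 genes of A-LTMR, the low-threshold touch neurons with fast axons, *Colq*, a collagen tail of acetylcholinesterase, was higher (0.298 to 0.988 CPM against 0.864 to 2.77 CPM, overlapping, 1.19 ± 0.27) and *Maf* lower (-0.22 ± 0.040). None of 6 proprioceptor genes was past the cut-off, and the most abundant, *Ntrk3*, was at 272 to 322 CPM and 314 to 346 CPM.

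Markers of tissue outside the ganglion were mixed. Of 13 cartilage and bone genes, 4 were lower, namely *Matn1* (-1.24 ± 0.26), the osteoblast factor *Sp7* (-0.88 ± 0.17), *Comp* (-0.84 ± 0.24) and *Acan* (-0.59 ± 0.15), and *Hapln1*, a link protein of matrix, was higher (0.53 ± 0.071). Of 14 fibroblast and meninges genes, *Crabp2* (-0.43 ± 0.080) and *Col1a1* (-0.37 ± 0.072) were lower. No skeletal muscle gene of 12 and no sympathetic or chromaffin gene of 10 was past the cut-off. For muscle, control 5 was highest and control 4 lowest of all 10 libraries (274 and 41.8 CPM summed). The sympathetic sum was 491 CPM in control 5 against 221 to 260 CPM in the other 9 libraries, and the spinal cord sum 27.5 CPM in control 3 against 1.36 to 3.21 CPM elsewhere, with 2 spinal cord genes tested and none past the cut-off. Without control 3 and control 5, 790 genes were past the cut-off and higher in numbers 4 and 5 and 627 lower. Of 3 epidermal genes tested, *Krt1* was lower (-0.68 ± 0.14), and of 3 adipocyte genes *Cidea* was higher (0.58 ± 0.15). The part of these tissues in the other differences was not tested.

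Some genes of fetal growth were lower and some genes of low oxygen higher in numbers 4 and 5. Of 11 genes of fetal growth and timing, 5 were lower, none was higher and 6 were not past the cut-off (median -0.25). The 5 were *Igf2* (-0.49 ± 0.14), *Dlk1* (-0.45 ± 0.10), *Cdkn1c* (-0.32 ± 0.095), *Igf2bp3* (-0.28 ± 0.078) and *Mest* (-0.17 ± 0.033). *Igf2*, a fetal growth factor, ranged from 74.6 to 108 CPM (median 85.2) in numbers 1 to 3 and from 48.6 to 81.9 CPM in numbers 4 and 5, with control 4 inside the range of the lower numbers. Of 11 hypoxia and glycolysis genes, 5 were higher with no overlap, *Bnip3* (0.44 ± 0.071), the glucose transporter gene *Slc2a1* (0.43 ± 0.094), *Vegfa* (0.30 ± 0.044), *Pdk1* (0.29 ± 0.057) and *Ldha* (0.21 ± 0.041), and none was lower. *Vegfa* was at 123, 115 and 118 CPM in control 1 to 3 and 114, 132 and 112 CPM in WD1 cKO 1 to 3. The level was 147 and 147 CPM in control 4 and 5, and 151 and 139.8 CPM in WD1 cKO 4 and 5. Of 12 immediate early genes, *Arc* (0.58 ± 0.11) and *Fos* (0.52 ± 0.13) were higher, and of 8 heat shock genes, *Hspa8* (0.16 ± 0.038), where 6.31% of all genes were higher. Of 7 mitochondrially encoded genes tested, 4 were higher, *mt-Nd5* (0.27 ± 0.060), *mt-Co1* (0.26 ± 0.056), *mt-Nd1* (0.23 ± 0.052) and *mt-Nd4* (0.21 ± 0.054). Their summed level was 17316 to 20255 CPM in numbers 1 to 3 and 20432 to 23814 CPM in numbers 4 and 5.

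None of 14 cell cycle genes was past the cut-off (*Mki67* -0.08 ± 0.074, *Top2a* 0.07 ± 0.085). Of the list named transcripts without a poly(A) tail, the 6 tested were all histone genes, and none was past it (*Hist1h1c* -0.07 ± 0.091). Whether their reads in these mRNA libraries came from RNA without a tail was not tested. Of 20 ribosomal protein genes, *Rpl8* was lower (-0.13 ± 0.035), which is near the 5.31% of all genes. Of 16 cholesterol synthesis genes 2 were higher, among them *Stard4* (0.12 ± 0.034), where 6.31% of all genes were. Of 19 Hox genes, *Hoxb9* (-0.40 ± 0.10), *Hoxc9* (-0.40 ± 0.11) and *Hoxa9* (-0.25 ± 0.067) were lower (5.31% of all genes were), and 16 were not past the cut-off. Among those 16 was *Hoxd9* (-0.21 ± 0.16), the fourth gene of the same paralogous group, which overlapped between the sets. *Hoxd10*, *Hoxd11* and *Hoxc11*, picked after their values were seen, were also among the 16 and varied widely within both sets. *Hoxd10* was at 0.674 to 9.27 CPM in numbers 1 to 3 and 3.03 to 14.5 CPM in numbers 4 and 5. *Hoxc11* was at 0 to 3.25 CPM and 0.176 to 3.46 CPM in the same order. A difference in axial level between libraries was not tested. Within control and within *WD1* cKO, the medians of the interferon, myelin, blood and liver lists lay on the same side of 0.

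**Figure D5:**
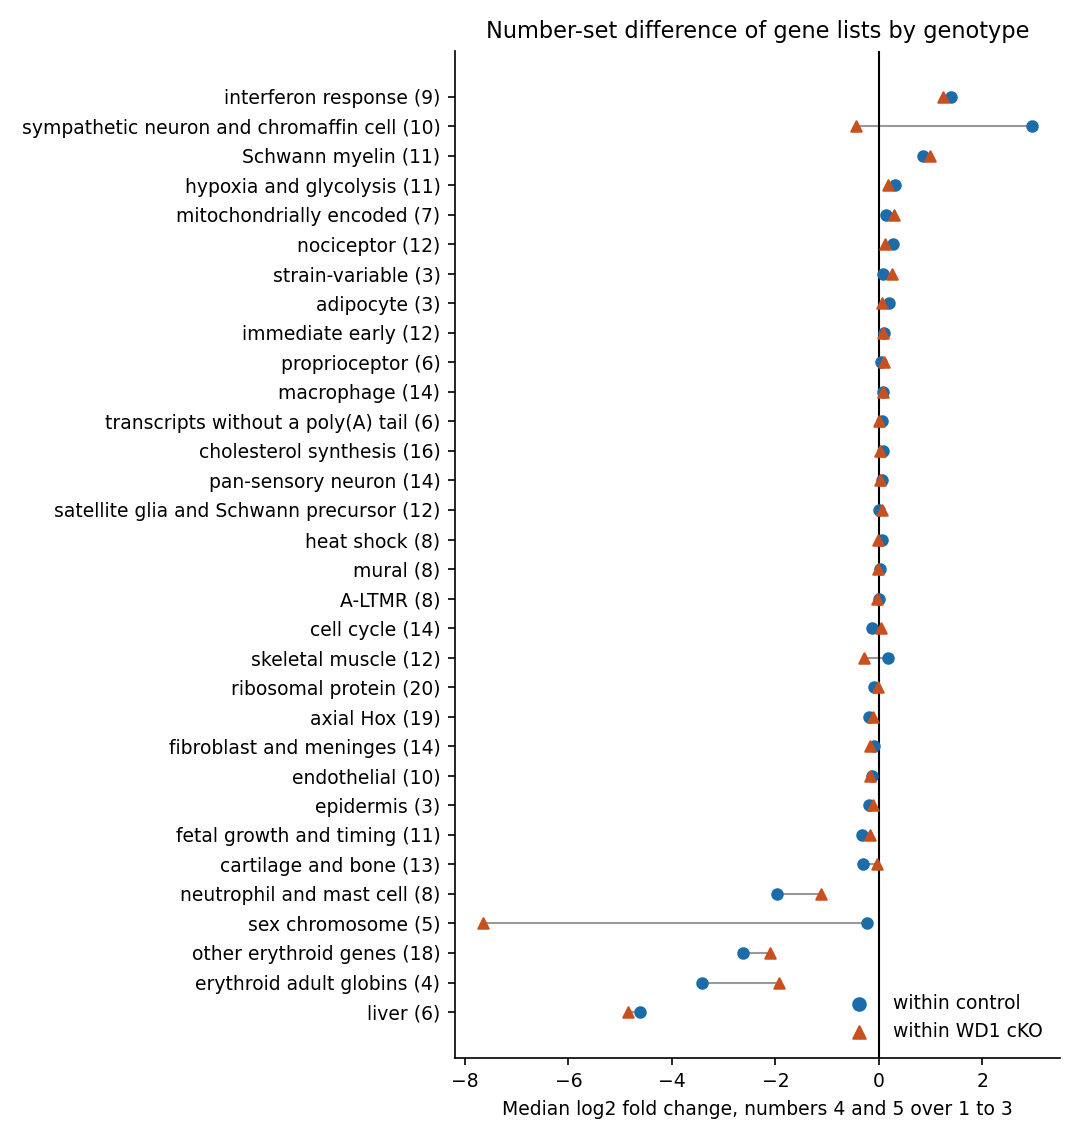
For each gene list with at least 3 genes tested (number in brackets), the circle is the median log2 fold change of numbers 4 and 5 over 1 to 3 within control and the triangle within *WD1* cKO, joined by a line. Interferon response and Schwann myelin lie to the right in both genotypes, blood and liver lists to the left, and the sympathetic and sex chromosome lists part by genotype.

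Sex was not shared out by number in a simple way. None of the 3 strain-variable genes tested was past the cut-off, and whether genetic background differed between the number sets was not tested. *Xist* was at 3.38 to 4.85 CPM in 4 libraries (control 1, 3 and 4 and *WD1* cKO 2) and at 958 CPM or more in the other 6, and *Ddx3y*, *Kdm5d*, *Uty* and *Eif2s3y* were at 26.9 CPM or more in those 4 and at 0.305 CPM or less in the rest. Both number sets thus hold both kinds of library, 3 of 6 against 1 of 4, and both *WD1* cKO libraries of numbers 4 and 5 are of the *Xist* kind. The genotypes were not balanced either, since control 1, 3 and 4 but only *WD1* cKO 2 had little *Xist*. Of the strain-variable genes, *Glo1* (0.09 ± 0.030) and *Nnt* (0.14 ± 0.35) were not past the cut-off, *Nnt* was at 0.610 CPM or less throughout, and *Entpd4* and *Entpd4b* were not tested. *Wdfy1* was at 65.4, 44.5 and 24.8 CPM in control 1 to 3 and 46.0, 43.5 and 24.0 CPM in WD1 cKO 1 to 3. The values for numbers 4 and 5 were 62.7 and 65.0 CPM in control and 63.6 and 62.7 CPM in WD1 cKO. All 4 libraries of numbers 4 and 5 and control 1 were near the top of its range, and control 3 and *WD1* cKO 3 were lowest (0.63 ± 0.22, not past the cut-off).

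*Dynlt1b*, of a family of near-identical genes on chromosome 17, had the lowest log2 fold change of all protein-coding genes named by rule. It had 800 counts over numbers 1 to 3 and 1 over numbers 4 and 5, a ratio of 576 after library size (exact 95% interval 103 to 22800). It was at 7.90, 8.03 and 2.40 CPM in control 1 to 3 and 9.43, 3.49 and 2.95 CPM in WD1 cKO 1 to 3. It stood at 0 and 0.0440 CPM in control 4 and 5, against 0 and 0 CPM in WD1 cKO 4 and 5. *Tmem181b-ps*, a pseudogene of the same region picked after its values were seen, was at 23.5, 23.5 and 7.72 CPM in control 1 to 3 and 20.4, 7.82 and 8.54 CPM in WD1 cKO 1 to 3. For control 4 and 5 the values were 0.110 and 0.132 CPM, and for WD1 cKO 4 and 5 0 and 0.0866 CPM. The libraries of both genes fell into the same 3 levels, with control 1, control 2 and *WD1* cKO 1 highest, control 3, *WD1* cKO 2 and *WD1* cKO 3 between, and numbers 4 and 5 at or near 0. Their relatives *Dynlt1a* (-0.05 ± 0.059), *Dynlt1f* (-0.06 ± 0.083) and *Tmem181a* (0.04 ± 0.049) were not past the cut-off. Reads of such copies may be shared out by the counting. Summed, the 7 genes of this group, listed after values were seen, were at 61.1 to 87.0 CPM in numbers 1 to 3. In numbers 4 and 5 the sum was 52.6 to 53.8 CPM. The cause of the 3 levels was not tested. Among the genes highest in numbers 4 and 5, *Cyp2j13* and *Cyp2j12* are likewise neighbours of 1 gene family on chromosome 4. *Cyp2j13* was at 1.07, 0.970 and 1.36 CPM in control 1 to 3, 0.927, 0.912 and 1.19 CPM in WD1 cKO 1 to 3, 1.88 and 9.19 CPM in control 4 and 5, and 8.33 and 6.98 CPM in WD1 cKO 4 and 5, so that control 4 was far below control 5 and *WD1* cKO 4 and 5, while *Cyp2j12* ranged from 0.441 to 1.22 CPM (median 0.718) in numbers 1 to 3 and from 1.93 to 2.42 CPM in numbers 4 and 5. *Sp100*, *Ddx60*, *Sec14l5* and *Hal* complete the 15 highest, with log2 fold changes from 1.24 to 1.39.

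The number sets are balanced over genotype, since each number occurs once in each genotype. The cut used as a covariate was still chosen from these same data, so p-values with the number set in the model are not independent of that choice. With the number set in the model, 10 genes (0.0563%) had an adjusted p under 0.05 in edgeR's quasi-likelihood test, and without it 7 genes (0.0394%), all of them among the 10. *Cckar*, *Rnase4* and *Fst* were added by the number set, and without it their adjusted p was 0.0802, 0.169 and 0.0802 (edgeR). *Cckar* and *Rnase4* were not past the cut-off with the replicate number as a block or with *Xist* as a covariate. Fst (ENSMUSG00000021765, chromosome 13), the activin antagonist follistatin, was at 14.5, 16.5 and 14.1 CPM in control 1 to 3 and 23.7, 22.3 and 22.4 CPM in WD1 cKO 1 to 3. Among numbers 4 and 5, control had 17.5 and 18.9 CPM and WD1 cKO 27.9 and 23.4 CPM. It was higher in *WD1* cKO within each number set (0.56 ± 0.064, adjusted p = 0.00617, edgeR), while the highest control library, control 5, belongs to numbers 4 and 5. *Cckar*, a cholecystokinin receptor, was at 3.85, 3.75 and 4.42 CPM in control 1 to 3 and 2.65, 2.36 and 2.91 CPM in WD1 cKO 1 to 3. In numbers 4 and 5 it was at 5.08 and 4.84 CPM (control) and 2.79 and 2.89 CPM (WD1 cKO). All 5 *WD1* cKO libraries were below all 5 control libraries (-0.68 ± 0.10, adjusted p = 0.0312, edgeR). *Rnase4*, a secreted ribonuclease, was at 38.4, 37.3 and 36.6 CPM in control 1 to 3, 46.7, 45.1 and 44.1 CPM in WD1 cKO 1 to 3, 41.2 and 40.4 CPM in control 4 and 5, and 49.0 and 46.1 CPM in WD1 cKO 4 and 5, higher in all 5 *WD1* cKO libraries than in any control (0.25 ± 0.035, adjusted p = 0.0306, edgeR).

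The other 7 genes were *Dach1* (above), *H2afv*, *Calb2*, *Mef2c*, *Gm14681* and *Adtrp*, lower in *WD1* cKO, and *Pcdh7*, higher. *Calb2*, the calcium-binding protein calretinin, was at 4.00, 3.35 and 4.80 CPM in control 1 to 3, 1.22, 0.874 and 0.828 CPM in WD1 cKO 1 to 3, 4.01 and 4.35 CPM in control 4 and 5, and 0.915 and 1.07 CPM in WD1 cKO 4 and 5, a difference of -2.06 ± 0.14 between genotypes (adjusted p = 5.62e-05, edgeR) beside 0.05 ± 0.14 between the number sets. *H2afv*, a histone H2A.Z variant, differed by -0.96 ± 0.069 (adjusted p = 5.62e-05), *Mef2c* by -0.39 ± 0.050 (adjusted p = 0.015), *Pcdh7* by 0.26 ± 0.029 (adjusted p = 0.00609), *Gm14681* by -2.78 ± 0.41 (adjusted p = 0.035) and *Adtrp* by -1.78 ± 0.26 (adjusted p = 0.035), all from the same edgeR fit. *WD1* cKO embryos also carry the *Wnt1*-driven Cre, and an effect of that transgene itself on *H2afv* or the other genes was not tested. *Dach1*, *Calb2*, *H2afv*, *Pcdh7* and *Fst* kept an adjusted p under 0.05 in all 10 edgeR fits that left out 1 library, and *Mef2c* in 4, *Adtrp* in 3, *Cckar* and *Rnase4* in 2 and *Gm14681* in 1 of them. The adjusted p in those fits reached 0.0768 for *Mef2c*, 0.197 for *Adtrp*, 0.193 for *Cckar*, 0.141 for *Rnase4* and 0.223 for *Gm14681*.

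The smallest p of the genotype by number-set test belonged to Ide (ENSMUSG00000056999, chromosome 19), insulin-degrading enzyme, which was at 146, 154 and 136 CPM in control 1 to 3 and 152, 151 and 148 CPM in WD1 cKO 1 to 3. The level was 234 and 233 CPM in control 4 and 5, and 154 and 163 CPM in WD1 cKO 4 and 5. Control 4 and 5 stood above the other 8 libraries, a log2 difference of -0.61 between the genotypes' number-set differences (adjusted p = 0.0562, edgeR, not past the cut-off). *Btaf1*, close to *Ide* on chromosome 19, was at 47.6, 50.6 and 47.9 CPM in control 1 to 3, 48.0, 45.6 and 49.8 CPM in WD1 cKO 1 to 3, 60.4 and 64.6 CPM in control 4 and 5, and 48.1 and 47.6 CPM in WD1 cKO 4 and 5. *Fgfbp3*, also on chromosome 19 and chosen after values were seen, was at 2.63, 2.29 and 2.02 CPM in control 1 to 3 and 2.27, 2.39 and 1.92 CPM in WD1 cKO 1 to 3. The values for numbers 4 and 5 were 3.42 and 3.43 CPM in control and 1.98 and 1.67 CPM in WD1 cKO. In all 3 genes control 4 and 5 were the highest of the 10 libraries. As background, these 3 genes are known to vary together in copy number within the C57BL/6J strain, and this was not tested here. *Gm6392*, *Pitpnc1* and *Pi15* followed by p. *Pitpnc1* showed the same pair on top (174 CPM and 181 CPM against 141 to 157 CPM), *Pi15* the same pair at the bottom (4.34 CPM and 4.22 CPM against 4.67 to 8.09 CPM), and *Gm6392* had *WD1* cKO 1 to 3 lowest (0.228 to 0.421 CPM against 1.10 to 1.52 CPM). For each, the adjusted p missed 0.05, which does not show that the genotypes were alike.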

How the data were processed

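Stranded mRNA libraries were made from the DRG of 10 embryos, 5 control and 5 *WD1* cKO. The authors demultiplexed with bcl2fastq 2.20.0.422, aligned with STAR 2.7.8a to GRCm39 and counted reads per gene with featureCounts 2.0.1, per the labels and the study's methods. The deposited values are raw counts for 55414 gene identifiers. How strand and multi-mapping reads were treated in counting is not given in the sources used here, so overlapping genes and near-identical copies are uncertain.

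Libraries were grouped by title, replicate number included. The number sets and gene lists were chosen with earlier results of these data known. Symbols, gene types and chromosomes were matched for 52081 identifiers from a GRCm38 annotation, and promoters came from RefSeq (GRCm38.p6). Counts were fitted in R 4.3.3 with edgeR 4.0.16 (quasi-likelihood test, TMM scaling, at least 10 counts in at least 4 libraries, Benjamini-Hochberg adjustment, adjusted p under 0.05), with genotype and number set as terms, and with their product for the interaction. Principal components used log2 CPM with a prior count of 2. Intervals of count ratios are exact at 95% and cover counting error only. Library totals were 19757596 to 34796562. No pair of libraries of a genotype agreed within sampling noise (a chi-square of 4.30 to 15.1 for each degree of freedom), so each counted as 1 replicate. The study reports 1 embryo per library, and p-values measure the spread between these libraries.

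Genes were named by rule: the targeted gene and *Hbb-bs* and *Hba-a1*, the 15 highest and 15 lowest protein-coding genes past the cut-off without overlap and with a mean of at least 1 CPM, the leading members of each list, genes past the genotype cut-off and the 5 smallest interaction p-values. Others are said to be chosen after their values were seen, as are members of the lists added later and the remaining list members given for completeness. Some genes that the rule or the lists hold are counted but not reported here by name. In data simulated for the number-set comparison with 200 changed genes among 17768, 42% of the genes changed by 0.3, 54% by 0.5, 84% by 1 and 98% by 2 (log2) were recovered, with 15 false calls. Alternatives were DESeq2 1.42.0 (size factors and Wald test), other count filters, the replicate number as a block, *Xist* as a covariate, models without the other term, robust dispersions, library sizes without erythroid genes and each library left out.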

Additional observations from a re-analysis of the deposited data

Results flagged for a closer look

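Within each number set, the summed level of each gene list, except those chosen after values were seen, was checked for a library far from the rest of its set, and the 10 genotype genes were checked within each genotype. Of 68 list sums, 5 had such a library, and of 20 gene groups, 2 did. The limit used, Dixon's 95% critical value, is set so that chance flags about 1 in 20 groups, a rate not measured in these data.

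Among numbers 1 to 3, control 3 was far above the others for spinal cord genes (27.5 CPM, next 3.21 CPM). Among numbers 4 and 5, control 5 was far above for sympathetic neuron and chromaffin cell genes (491 CPM, next 253 CPM). In the same set control 4 was high for liver genes (7.21 CPM, next 4.01 CPM), low for adipocyte genes (9.57 CPM, next 12.7 CPM) and low for the sex chromosome list (242 CPM, next 958 CPM), being the only library of that set with little *Xist*. Among *WD1* cKO libraries, number 4 was far above the others for *Fst* (27.9 CPM, next 23.7 CPM) and *Pcdh7* (147 CPM, next 139 CPM).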

How the results depend on the processing

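All 2065 genes past the number-set cut-off, where tested, kept their direction under every alternative. The alternatives reuse the libraries and the split that picked these genes, so the kept direction is not independent support. Without *WD1* cKO 5, 1144 of the 2060 that were tested stayed past the cut-off, and without control 5, 1220 of 2061. The genes higher in numbers 4 and 5 came to 724 to 1122 and the genes lower to 441 to 912 when 1 library was left out, the lowest without control 5 and without *WD1* cKO 5. Without control 3 and control 5, an alternative chosen after seeing the data, 627 were lower. The genotype contrast with the number set gave 5 to 14 genes with 1 library left out, 34 under DESeq2's Wald test, 6 among genes averaging 100 counts or more and 447 without a low-count filter. The interaction gave 0 to 2 genes with 1 library left out, 1 with robust dispersions, 1 with DESeq2's Wald test, 3 without control 3 and control 5, and 136 without the filter. The causes were not tested. The replicate block gave 1050 higher, 826 lower, 8 genotype and 0 interaction genes, and under it *Cckar* (adjusted p = 0.0644), *Rnase4* (0.0644) and *Adtrp* (0.138) were not past the cut-off (edgeR). With *Xist* as a covariate, *Cckar* (adjusted p = 0.137), *Rnase4* (0.0780) and *Adtrp* (0.0749) were not past it either (edgeR). Same-numbered libraries deviated together with correlations of 0.319, -0.066, 0.268, 0.326 and 0.415 for numbers 1 to 5, and 5 of 10 libraries correlated best with their own number. Because number 2 did not deviate together and the labels give the number no meaning, the numbers were not taken as pairs, which does not exclude a shared source for the others. With 19757596 to 34796562 counts in a library, the limit set by depth shows in genes with 0 to 3 counts over 4 libraries, whose ratios have wide intervals.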
